A study of Mus musculus with 8 samples.

Results

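Complex III and ATP synthase are respiratory complexes of the inner mitochondrial membrane, and the transcripts of their nuclear genes were compared in hearts of WT and TAZG197V mice. Members were all genes whose mouse symbol begins with Uqcr or Atp5, pseudogene names left out, together with cytochrome c1 (Cyc1), somatic cytochrome c (Cycs), the assembly factors Uqcc1, Uqcc2, Uqcc3, Bcs1l, Lyrm7, Ttc19, Atpaf1 and Atpaf2, and the inhibitor Atpif1. This gave 38 of the 55471 gene rows, 16 in the complex III group and 22 in the ATP synthase group. Of the 38, 37 passed the low-count filter and were tested. The remaining row is a second annotated locus of the name Atp5o (ENSMUSG00000116933), which held 0 counts in all 8 libraries.

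Complex III passes electrons from ubiquinol to cytochrome c and moves protons out of the matrix while it does so. ATP synthase lets the protons return through a rotating ring of c subunits and uses the rotation to make ATP in its F1 head, and heart muscle depends on it for most of its ATP. Both complexes bind cardiolipin, the phospholipid that Tafazzin remodels, and both hold subunits encoded in mitochondrial DNA that are not members here.

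The libraries came from heart pieces of 4 WT mice and 4 TAZG197V mice, read as single-end reads of 50 bases. TAZG197V mice carry a missense change in Taz, the X-linked gene of Tafazzin, made with CRISPR/Cas9 in C57BL/6N zygotes, followed by crosses to C57BL6/J. The study used hemizygous males of this line, and its expression plots name an age of 14 weeks, while the labels speak of homozygous offspring and give neither sex nor age. WT mice lack the change, no treatment was given, and the labels do not say whether the WT mice were littermates.

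Library totals ranged from 23055689 to 36301031 counts, and levels below are counts relative to library size after TMM scaling (CPM). Taz itself was read in all libraries, at 58.7 to 63.8 CPM in WT and 44.3 to 50.4 CPM in TAZG197V. All 6 cardiomyocyte markers were abundant, with a summed level of 54360 to 60980 CPM in WT and 45490 to 49690 CPM in TAZG197V, and 3 of the 6 (Tnnt2, Tnni3 and Ryr2) were called lower. Of the markers of other cell types, 3 of 5 for fibroblasts, 2 of 5 for endothelial cells and all 6 for red cells were called lower, and of 6 brain markers 2 were called lower and 1 (Slc1a2) higher. Cfd, the only one of 5 adipocyte markers that passed the low-count filter, was called lower in TAZG197V, but its level was 10.1 CPM in WT 2 against 0.117 to 1.52 CPM in the remaining WT libraries, and its log2 ratio of means was 1.83 within lane 8. Summed fibroblast markers stood at 1087 to 1721 CPM in WT, highest in WT 2, against 751 to 1082 CPM in TAZG197V, and summed endothelial markers at 651 to 899 CPM against 503 to 702 CPM. Red cell markers made up 5.35% of WT 4, against 0.0358% to 0.102% of each remaining WT library and 0.023% to 0.0583% of each TAZG197V library. The log2 ratio of means of the red cell marker Hbb-bs was -0.37 within lane 7 and -6.30 within lane 8, which held WT 4. Summed brain markers stood at 189.6 CPM in WT 4 and 300.5 CPM in TAZG197V 4, against 46.6 to 92.7 CPM in the other 6 libraries. In those 6, Camk2a alone stood at 32.3 to 69.1 CPM. Slc1a2 stood at 30.8 CPM in WT 4 and 79.0 CPM in TAZG197V 4, against 0.632 to 2.18 CPM in the other 6. Nnat stood at 30.7 and 73.2 CPM against 1.43 to 3.93 CPM, while Mbp stood at 10.6 and 3.19 CPM against 2.05 to 5.38 CPM. Heart pieces hold many cell types, so fewer cardiomyocytes and less RNA per cardiomyocyte cannot be told apart in any value below, and the part of these marker differences in the members' values was not tested.

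A gene was called when the edgeR quasi-likelihood F-test gave an adjusted p under 0.05 over all 15084 genes tested, the log2 fold change exceeded 0.202 up or down and the mean scaled count reached 50. By this rule 13 of the 37 members were called (35.1%), 9 lower and 4 higher in TAZG197V. Of all genes tested, 33.5% were called, so the share of members called in either direction was close to that of genes at large. By direction, 24.3% of members were called lower beside 15.1% of all genes. Only 4 of the 37 were called higher, beside 18.5% of all genes, and these differences were not tested. The 4 WT values and the 4 TAZG197V values did not overlap for 11 members (29.7%), beside 33.2% of all genes. The median log2 fold change was -0.04 over the members and -0.01 over all genes tested. No fitted fold change of a member reached 1.5 in this fit, although the group means of Atpif1 differed by 0.64 on the log2 scale and some alternative fits gave it more than 1.5.

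The counts of the complexes are given side by side, and a difference between them was not tested. In the complex III group 6 of 16 genes were called lower and 3 higher, with a median log2 fold change of -0.11. In the ATP synthase group 3 of 21 tested genes were called lower and 1 higher, with a median of -0.03. Counted as subunits only, complex III had 3 called lower and 1 higher of 9 with a median of -0.12, and ATP synthase had 3 lower and 0 higher of 17 with a median of -0.03. The most similar complexes, I and IV, were counted by their nuclear subunits only. Complex I stood at 12 lower and 1 higher of 36 subunits with a median of -0.09, and complex IV at 3 lower and 3 higher of 16 subunits with a median of 0.02. The complex IV list includes alternative isoforms. One of them, Cox6b2, had a mean scaled count of 35.2, too low to be called. The gap between the subunit medians narrowed in some fits. The medians of complex III and ATP synthase were -0.12 and -0.11 without WT 4, -0.08 and -0.07 without TAZG197V 4, -0.09 and -0.08 without both, and -0.09 and -0.07 with all libraries but no low-count filter. Without WT 4, 6 genes of each group were called lower, beside 2145 of all 15400 genes tested in that fit. The complex III genes called lower fell from 6 to 4 without WT 1, WT 3, TAZG197V 2 or TAZG197V 4. Over all genes, those fits called 1842 of 15228, 2103 of 15495, 1550 of 15251 and 2127 of 15460 lower, in that order. With all libraries, 2275 of 15084 genes were called lower. Over the fits without 1 library, the ATP synthase median ranged from -0.11 to -0.01, the latter without WT 1. It was -0.08 without WT 2, -0.05 without WT 3 and -0.09 without TAZG197V 2.

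The summed level of the 9 complex III subunits was 5337 ± 574 CPM in WT against 4836 ± 278 CPM in TAZG197V (SD, n = 4 each). For the ATP synthase subunits the sums were 16710 ± 1292 CPM and 16380 ± 564 CPM (SD, n = 4 each). Both sums overlapped between the genotypes. WT libraries disagreed in a shared direction: WT 1 and WT 3 both lay above WT 2 and WT 4 for 32 of the 37 members (86.5%), beside 18.9% of all genes tested. TAZG197V 4 was the lowest of its genotype for 31 members (83.8%), beside 36.9% of all genes. These patterns widen the spread of single members within a genotype.

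**Figure D1:**
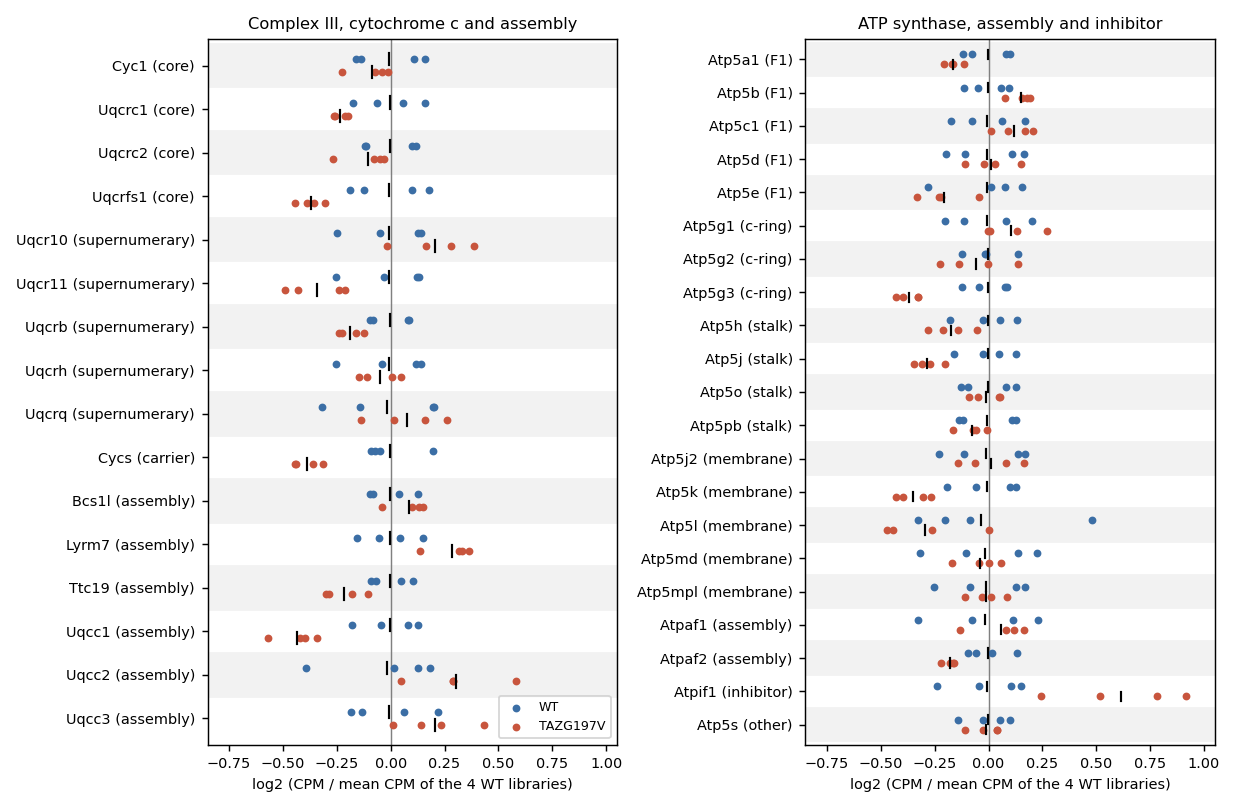
Levels of the 37 tested members in every library, as log2 of CPM over the mean CPM of the 4 WT libraries, with complex III and its partners on the left and ATP synthase and its partners on the right. Each point is 1 library, blue for WT and red for TAZG197V, and black ticks are the mean of the 4 log2 values. Uqcc1, Uqcrfs1, Cycs, Atp5g3 and Atp5k lie to the left in TAZG197V with no overlap, and Atpif1 lies to the right.

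The catalytic and core subunits of complex III were all below 0 on the log2 scale, and 2 of the 4 were called lower. Uqcrfs1 (ENSMUSG00000038462, chr13:30540308-30545362, minus strand, GRCm38) encodes the Rieske iron-sulfur protein, which takes the first electron from ubiquinol. Its level was 862, 738, 910.5 and 705 CPM in WT 1 to WT 4 and 614, 651, 629 and 591 CPM in TAZG197V 1 to TAZG197V 4. Every TAZG197V library was below every WT library, and the TAZG197V values were the less scattered. This gave a log2 fold change of -0.38 (standard error, SE, 0.081) and an edgeR adjusted p of 0.00754.

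Cyc1 encodes cytochrome c1, which hands the electron on to cytochrome c. It stood at 906, 766, 941 and 752 CPM in WT and at 799, 835, 817 and 719 CPM in TAZG197V, so the genotypes overlapped. Its log2 fold change was -0.10 (SE 0.072, edgeR adjusted p = 0.315), and Cyc1 was not called in any of the 18 alternative fits.

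The core proteins Uqcrc1 and Uqcrc2 face the matrix and hold the dimer together. Uqcrc1 measured 1424, 1127, 1327 and 1219 CPM in WT and 1109, 1099, 1065 and 1060 CPM in TAZG197V, with no overlap. The log2 fold change of -0.25 (SE 0.079, edgeR adjusted p = 0.0372) was close to the threshold, and Uqcrc1 was called in 8 of 18 alternative fits. Uqcrc2 measured 1086, 922, 1074 and 924 CPM in WT against 950.0, 982, 966 and 831 CPM in TAZG197V. These values overlapped, with a log2 fold change of -0.12 and an edgeR adjusted p of 0.194. Part of the Uqcrc2 transcript (24.2% of its 50-base windows) also lies in transcripts of the overlapping gene Pdzd9, so its count is less certain than that of Uqcrc1 or Uqcrfs1, which share no window with another gene.

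Within a library the ratio of Uqcrfs1 to Uqcrc1 was 0.631 ± 0.0485 in WT against 0.574 ± 0.0207 in TAZG197V (SD, n = 4 each), with overlap. The ratio of Cyc1 to Uqcrc1 was 0.660 ± 0.0416 and 0.731 ± 0.0413 (SD, n = 4 each), again with overlap. Such ratios do not depend on how libraries are scaled, and they were examined as descriptions without a test.

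The 5 small supernumerary subunits did not move as one. Uqcr11 (chr10:80402997-80406830, minus strand) encodes the smallest of them and was called lower. It stood at 214, 191, 212 and 163 CPM in WT and 145, 168, 165 and 139 CPM in TAZG197V. WT 4 overlapped the TAZG197V libraries and the other WT libraries did not. Its log2 fold change was -0.33 (SE 0.075, edgeR adjusted p = 0.00917).

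Uqcr10, another small subunit, was called higher. It stood at 255, 224, 253 and 195 CPM in WT and 259.6, 303, 281 and 229 CPM in TAZG197V, so the genotypes overlapped. Its log2 fold change was 0.21 with an edgeR adjusted p of 0.0455, the highest among called members, and Uqcr10 was called in only 4 of 18 alternative fits.

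The remaining supernumerary subunits were not called. Uqcrb, which sits beside cytochrome b, passed the adjusted p (0.029, edgeR) but not the fold cut-off, at 109 ± 7.55 CPM in WT against 95.5 ± 3.61 CPM in TAZG197V (SD, n = 4 each) and a log2 fold change of -0.19. It was called lower in 6 of 18 alternative fits. Its values did not overlap, but 43.4% of its 50-base windows also occur in other genes. The hinge protein gene Uqcrh had a log2 fold change of -0.04 and Uqcrq one of 0.08, with edgeR adjusted p of 0.719 and 0.524. Cytochrome b itself, the mitochondrially encoded subunit, stood at 47310 ± 4159 CPM in WT against 44890 ± 1520 CPM in TAZG197V (SD, n = 4 each). That gene, mt-Cyb, had a log2 fold change of -0.08 and an edgeR adjusted p of 0.551.

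Cycs (chr6:50562563-50566538, minus strand) encodes somatic cytochrome c, the mobile carrier that takes electrons from complex III. It was counted at 21.4, 20.9, 25.5 and 21.2 CPM in WT and 17.9, 16.4, 16.3 and 17.3 CPM in TAZG197V. All TAZG197V values were lower than all WT values, and WT 3 stood above the other WT libraries. On the log2 scale the change was -0.40 (SE 0.084, edgeR adjusted p = 0.00687). Of its 50-base windows 28.5% occur in other genes, and reads from these windows may be missing from its count. The counts therefore do not give the level of Cycs relative to Cyc1, only its difference between genotypes.

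The assembly factors of complex III moved in both directions, 2 called lower and 2 higher of 6. Uqcc1 (ENSMUSG00000005882, chr2:155846894-155930310, minus strand) acts with Uqcc2 on newly made cytochrome b at the start of assembly. It was counted at 209, 175, 216 and 192 CPM in WT and at 150.2, 156, 148 and 133 CPM in TAZG197V. The groups were well apart, with the highest TAZG197V library below the lowest WT library. Its log2 fold change of -0.45 (SE 0.055, edgeR adjusted p = 0.000495) was the lowest of all members.

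Uqcc2, the partner of Uqcc1, went the other way. It was counted at 77.3, 68.7, 74.3 and 51.8 CPM in WT and 83.2, 101.8, 83.1 and 70.3 CPM in TAZG197V. TAZG197V 4 lay within the WT range. The fitted log2 difference was 0.33 (SE 0.091, edgeR adjusted p = 0.0209), and Uqcc2 was called in 12 of 18 alternative fits. Uqcc3, which acts after this pair, stood at 23.7 ± 3.11 and 27.5 ± 3.46 CPM (SD, n = 4 each) and was not called, with a log2 fold change of 0.20 and an edgeR adjusted p of 0.0915.

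Bcs1l, Lyrm7 and Ttc19 handle the Rieske protein at the last step of assembly. Lyrm7, which holds the Rieske protein in the matrix before insertion, was counted at 21.4, 19.98, 23.1 and 18.7 CPM in WT and 26.1, 26.7, 25.9 and 22.8 CPM in TAZG197V. Only TAZG197V 4 lay below the highest WT library. This corresponded to a log2 fold change of 0.28 (SE 0.063, edgeR adjusted p = 0.00855), and Lyrm7 was called in 17 of 18 alternative fits. Ttc19, which helps clear Rieske fragments after insertion, was counted at 56.5, 50.1, 54.2 and 49.2 CPM in WT and 48.8, 46.4, 42.7 and 43.0 CPM in TAZG197V. Its values did not overlap, though the highest TAZG197V and the lowest WT library were close. Its log2 fold change was -0.22 with an edgeR adjusted p of 0.0348, and Ttc19 was called in 13 of 18 alternative fits. Bcs1l, the AAA protein that inserts the Rieske protein, had a log2 fold change of 0.07 and an edgeR adjusted p of 0.34. Of the genes that handle the Rieske protein, 1 was called higher, 1 was called lower and 1 was not called, beside the lower call of Uqcrfs1 itself.

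**Figure D2:**
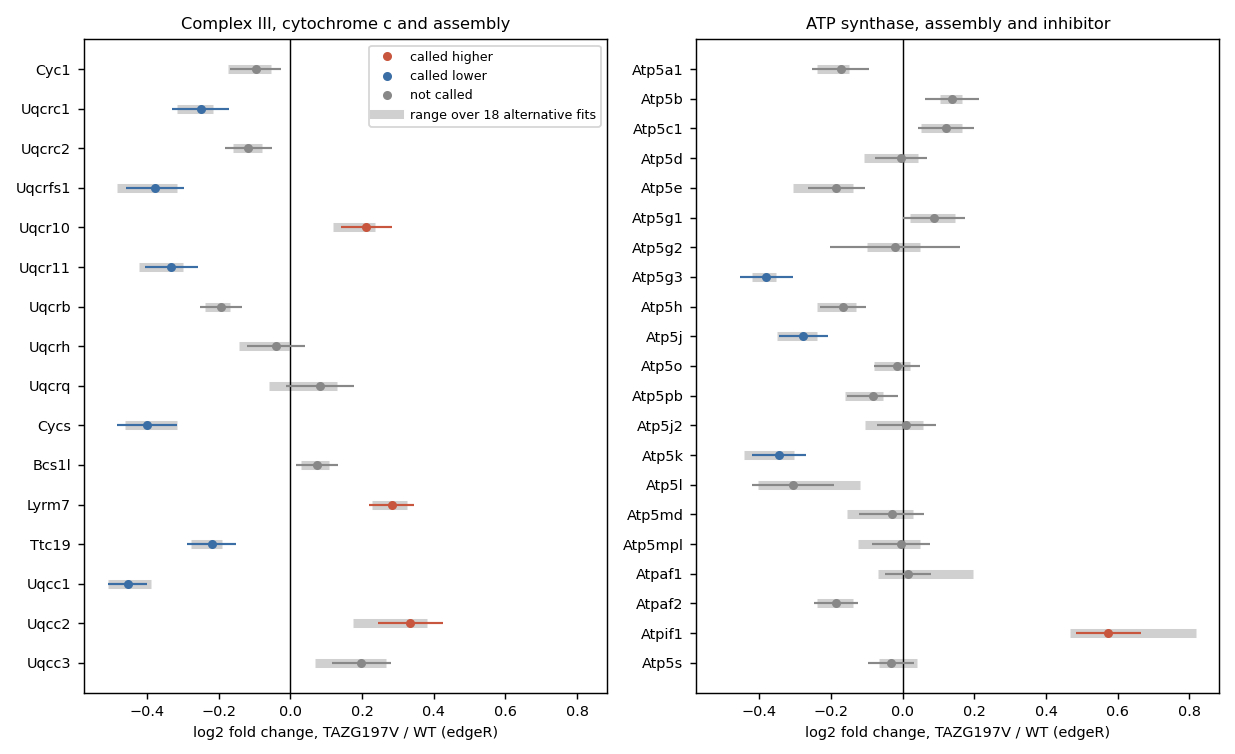
Log2 fold change of TAZG197V over WT from edgeR for the 37 tested members, with points for the estimate and thin bars for its standard error. Red points were called higher, blue points lower and grey points were not called, and grey bands span the estimates of 18 alternative fits. The lowest value is -0.45 for Uqcc1 and the highest is 0.57 for Atpif1.

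None of the 5 genes of the F1 head was called. Atp5b encodes the catalytic beta subunit and Atp5a1 the alpha subunit, which alternate in the head in equal number. Atp5a1 stood at 5361, 4615, 5300.0 and 4753 CPM in WT and 4467, 4633, 4454 and 4340.0 CPM in TAZG197V. Atp5b stood at 6171, 5346, 6018 and 5589 CPM in WT and 6437, 6599, 6537 and 6100.0 CPM in TAZG197V. Each gene overlapped between genotypes, with a lower mean of Atp5a1 and a higher mean of Atp5b in TAZG197V.

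The log2 fold change was -0.17 (SE 0.078, edgeR adjusted p = 0.114) for Atp5a1 and 0.14 (SE 0.076, edgeR adjusted p = 0.186) for Atp5b. Within each library, however, the ratio of Atp5a1 to Atp5b was 0.869, 0.863, 0.881 and 0.850 in WT and 0.694, 0.702, 0.681 and 0.711 in TAZG197V. The means were 0.866 ± 0.0126 and 0.697 ± 0.0127 (SD, n = 4 each), so the ratios were separated by many times their spread while the single levels overlapped. This ratio was picked with the members' values known, and no test is given for it. Which of the genes has the higher level depends on the length used. Per kilobase of all exon bases WT hearts held 1597 CPM of Atp5a1 and 1364 CPM of Atp5b, while per kilobase of the longest transcript they held 1872 and 3017 CPM. In TAZG197V the values were 1427 and 1515 CPM by the first length and 1673 and 3350 CPM by the second, so no order of levels is drawn for WT.

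None of the 3 central stalk genes was called. Atp5c1, the gamma subunit that turns inside the head, had 1083 ± 114 CPM in WT against 1179 ± 70.5 CPM in TAZG197V (SD, n = 4 each) and a log2 fold change of 0.12 (edgeR adjusted p = 0.253). Its ratio to Atp5b was 0.187 ± 0.0112 and 0.183 ± 0.00524 (SD, n = 4 each), with overlap. Atp5d, the delta subunit, stood at 441 ± 52.3 and 445 ± 33.3 CPM (SD, n = 4 each), and its ratio to Atp5b overlapped as well. Atp5e, the epsilon subunit, stood at 346 ± 43.8 and 301.0 ± 25.4 CPM (SD, n = 4 each), with a log2 fold change of -0.18 and an edgeR adjusted p of 0.101. Its ratio to Atp5b was 0.0510 to 0.0652 in WT and 0.0451 to 0.0509 in TAZG197V, so the ratios did not overlap, although the nearest libraries were almost equal. Atp5e was called lower in 5 of 18 alternative fits.

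**Figure D3:**
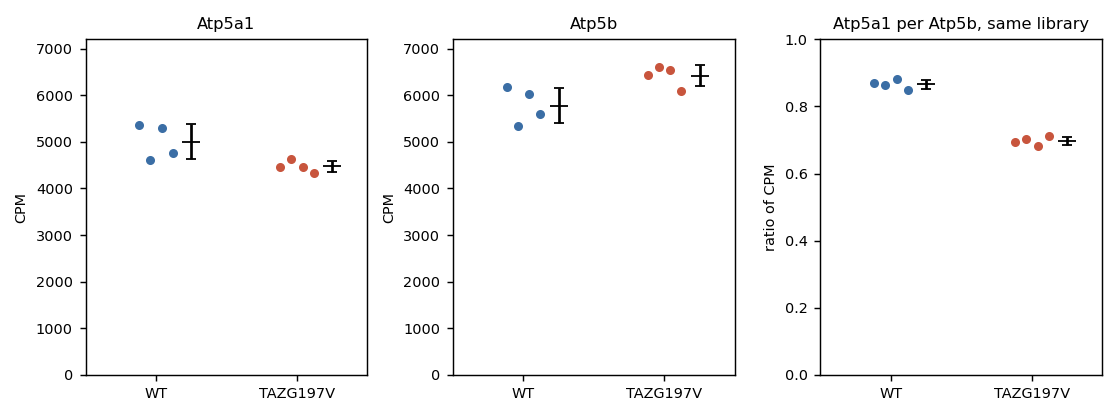
CPM of Atp5a1 and Atp5b and their ratio in each library, with blue points for the 4 WT and red points for the 4 TAZG197V libraries and black bars for mean and SD. The single genes overlap between genotypes, while the ratio lies at 0.850 to 0.881 in WT and 0.681 to 0.711 in TAZG197V.

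The ring of c subunits is encoded by 3 genes, Atp5g1, Atp5g2 and Atp5g3, whose products differ in their import sequence and end in the same mature protein. A stretch of 120 coding bases from each is shown because the count of each gene rests on reads telling these similar ends apart. The stretches were read on the minus strand from GENCODE M21 transcripts (GRCm38), and capitals mark the bases at which the genes are not all the same.
Atp5g1, chr11:96073525-96073644: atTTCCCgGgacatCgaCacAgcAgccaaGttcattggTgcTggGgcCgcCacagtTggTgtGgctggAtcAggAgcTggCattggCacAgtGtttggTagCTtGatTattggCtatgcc
Atp5g2, chr15:102665056-102665175: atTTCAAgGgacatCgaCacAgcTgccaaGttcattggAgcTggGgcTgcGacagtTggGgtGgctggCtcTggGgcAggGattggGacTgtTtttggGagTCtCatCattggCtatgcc
Atp5g3, chr2:73909186-73909305: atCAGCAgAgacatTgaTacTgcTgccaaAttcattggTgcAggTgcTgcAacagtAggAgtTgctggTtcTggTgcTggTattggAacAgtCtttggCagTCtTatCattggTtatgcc

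The last 78 codons of the 3 genes encode the same residues. Over these 234 bases Atp5g1 and Atp5g2 were 84.6% identical, Atp5g1 and Atp5g3 78.6%, and Atp5g2 and Atp5g3 77.4%. No pair shared a run of 50 bases within them, the read length, so exact reads can be assigned to 1 of the 3 genes. Atp5g3 shared no 50-base window with any other annotated transcript, whereas 11.1% of the windows of Atp5g1 and 38.4% of those of Atp5g2 occur in other genes.

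Atp5g3 (ENSMUSG00000018770, chr2:73908447-73911326, minus strand), the most abundant of the set, was called lower. It was counted at 1374, 1191, 1366 and 1256 CPM in WT and 986, 963, 1032 and 1035 CPM in TAZG197V. The genotypes did not overlap, and the TAZG197V values were tightly grouped. On the log2 scale the change was -0.38 (SE 0.074, edgeR adjusted p = 0.0046).

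Atp5g1 was counted at 129.8, 107, 141 and 113 CPM in WT and 148, 123, 134 and 123 CPM in TAZG197V. TAZG197V 1 lay above every WT library and the other TAZG197V libraries lay within the WT range. Atp5g1 was not called, with a log2 fold change of 0.09 and an edgeR adjusted p of 0.445. Atp5g2 was sparse, at 1.39, 1.54, 1.28 and 1.38 CPM in WT and 1.27, 1.54, 1.19 and 1.39 CPM in TAZG197V, with a log2 fold change of -0.02 and an edgeR adjusted p of 0.935.

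The make-up of the subunit c transcripts was described per base of exon. Atp5g3 made up 95.9%, 96.0%, 95.5% and 96.0% of the 3 genes in WT and 93.6%, 94.4%, 94.4% and 94.8% in TAZG197V. Atp5g1 made up 4.02%, 3.82%, 4.38% and 3.85% in WT and 6.25%, 5.37%, 5.46% and 4.99% in TAZG197V. By the longest transcript in place of all exon bases, Atp5g1 made up 1.61% to 1.85% in WT and 2.12% to 2.67% in TAZG197V, and Atp5g3 98.0% to 98.3% and 97.2% to 97.7%. By either length neither share overlapped between the genotypes, and Atp5g2 stayed under 0.2% in all libraries. The ratio of Atp5g1 to Atp5g3 counts was 0.0944 ± 0.00637 in WT against 0.132 ± 0.0133 in TAZG197V (SD, n = 4 each). The ratio of Atp5g3 to Atp5b was 0.224 ± 0.002 in WT against 0.157 ± 0.00993 in TAZG197V (SD, n = 4 each), also without overlap. These shares and ratios are descriptions and carry no test, and the ratios were chosen after the members' values were seen.

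**Figure D4:**
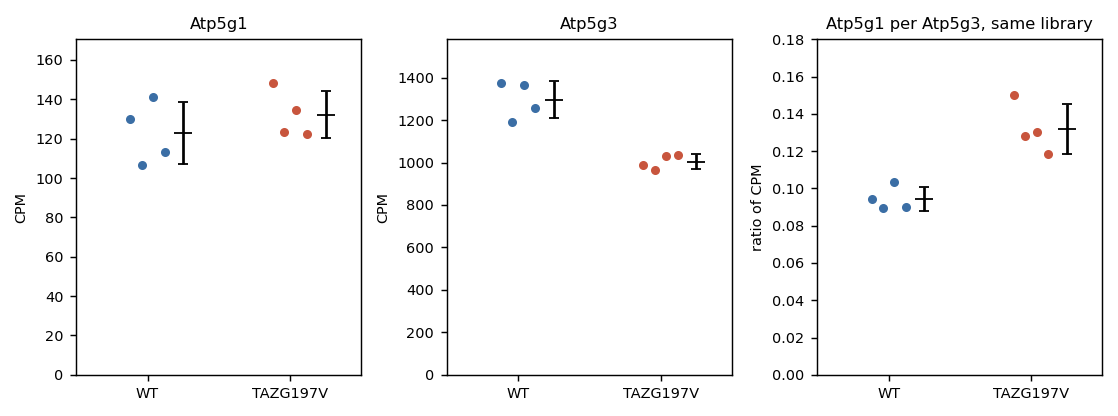
CPM of Atp5g1 and Atp5g3 and the ratio of the former to the latter in each library, with blue points for the 4 WT and red points for the 4 TAZG197V libraries and black bars for mean and SD. Atp5g1 overlaps between genotypes, Atp5g3 lies at 1191 to 1374 CPM in WT and 963 to 1035 CPM in TAZG197V, and the ratio does not overlap.

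The peripheral stalk holds the head still while the ring turns, and 1 of its 4 tested genes was called. Atp5j (chr16:84827866-84835625, minus strand) encodes coupling factor 6 and was counted at 568, 511, 538 and 465 CPM in WT and 419, 453, 430.4 and 409 CPM in TAZG197V. The values did not overlap. The fitted log2 difference was -0.28 (SE 0.069, edgeR adjusted p = 0.0142). Atp5j shares 12.7% of its exon bases with the neighbouring gene Gabpa. The other stalk genes were not called. Their log2 fold changes were -0.17 for Atp5h (subunit d, edgeR adjusted p = 0.0748), -0.08 for Atp5pb (subunit b, 0.384) and -0.02 for Atp5o (the oligomycin sensitivity protein, 0.864). Between 36.9% and 47.6% of the windows of these 3 genes occur elsewhere.

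Of the 5 supernumerary membrane subunits, which link ATP synthase into dimers and rows along the cristae, Atp5k was called. Atp5k (chr5:108433244-108434448, minus strand) encodes subunit e and was counted at 302, 271, 307 and 246 CPM in WT and 209, 234, 228 and 213 CPM in TAZG197V. All TAZG197V libraries were below all WT libraries. This corresponded to a log2 fold change of -0.34 (SE 0.075, edgeR adjusted p = 0.0079). Subunit g, the partner of subunit e, is encoded by Atp5l and was counted at only 8.42 ± 2.27 CPM in WT against 6.93 ± 1.09 CPM in TAZG197V (SD, n = 4 each). As 84.9% of its windows occur in other genes, its log2 fold change of -0.31 (edgeR adjusted p = 0.064) is uncertain. Atp5j2 (subunit f), Atp5md and Atp5mpl were not called, with log2 fold changes of 0.01, -0.03 and -0.01 and edgeR adjusted p from 0.81 to 0.967. Of the mitochondrially encoded subunits, mt-Atp6 and mt-Atp8 are listed at 0 in all libraries, and no level is given for them.

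Atpif1 (ENSMUSG00000054428, chr4:132530555-132533659, minus strand) encodes the inhibitor that binds the F1 head and stops it from hydrolysing ATP when the proton gradient fails. It was the only member of the ATP synthase group called higher. It was counted at 50.5, 44.0, 56.0 and 57.7 CPM in WT and 74.5, 98.1, 89.6 and 61.7 CPM in TAZG197V. The genotypes did not overlap, although TAZG197V 4 was only slightly above WT 4. The log2 fold change of 0.57 (SE 0.091, edgeR adjusted p = 0.00175) was the highest of all members and ranged from 0.47 to 0.82 over the 18 alternative fits.

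Within lanes the log2 ratio of mean Atpif1 CPM was 0.87 in lane 7, which held libraries 1 and 2 of each genotype, and 0.41 in lane 8, which held libraries 3 and 4. The ratio of Atpif1 to Atp5b was 0.00901 ± 0.00102 in WT against 0.0126 ± 0.00213 in TAZG197V (SD, n = 4 each), and here WT 4 and TAZG197V 4 overlapped. Exons of Gm12999 cover 33.7% of the exon bases of Atpif1, and 30.3% of its windows occur in other genes, so part of its reads may be uncounted or shared.

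The chaperone genes of the F1 head were not called. Atpaf2, which binds the alpha subunit, passed the adjusted p (0.0434, edgeR) but not the fold cut-off, at 30.6 ± 2.16 CPM in WT against 27.03 ± 0.511 CPM in TAZG197V (SD, n = 4 each) and a log2 fold change of -0.19, with no overlap. Atpaf1, which binds the beta subunit, stood at 22.3 ± 3.65 and 23.3 ± 2.06 CPM (SD, n = 4 each), with a log2 fold change of 0.01. Atp5s, known as coupling factor B, had a log2 fold change of -0.03.

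**Figure D5:**
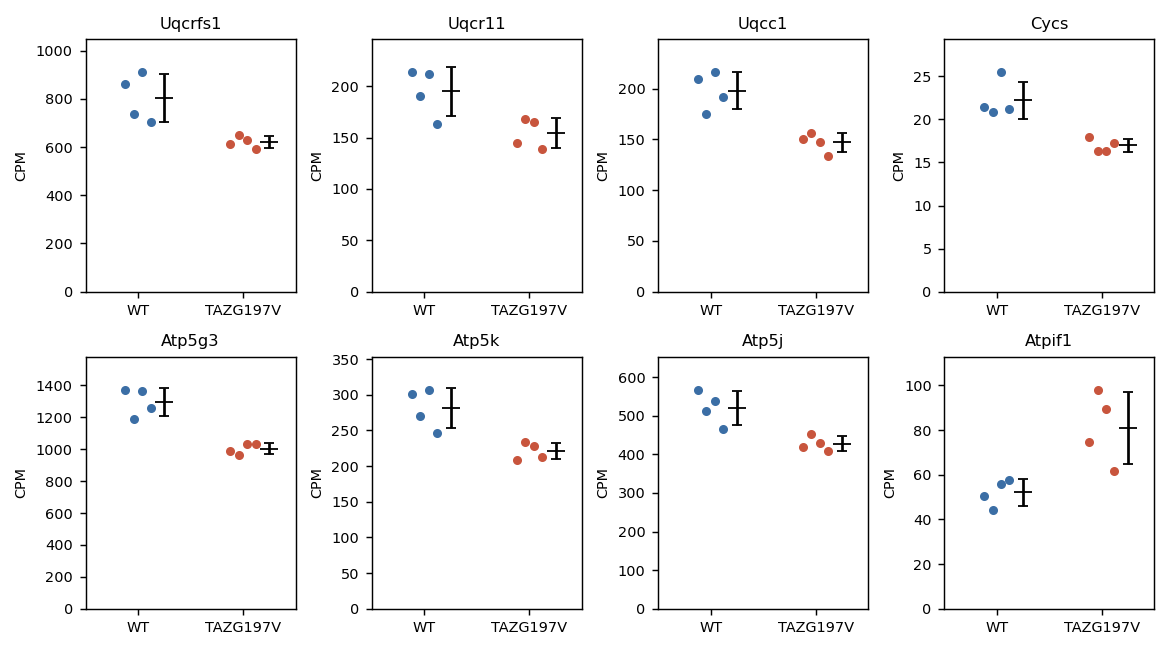
CPM in each library of the 8 members that were called in the same direction in all 18 alternative fits, with blue points for WT and red points for TAZG197V and black bars for mean and SD over 4 libraries. Uqcr11 overlaps through WT 4, and the other 7 do not overlap, with Atpif1 the one gene of the 8 that is higher in TAZG197V.

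The 13 called members were not equally firm. Uqcc1, Cycs, Uqcrfs1, Uqcr11, Atp5g3, Atp5j, Atp5k and Atpif1 were called in the same direction in all 18 alternative fits. All 13 had the same sign in both lanes, as did 31 of the 37 tested members and all 16 of the complex III group. The lanes hold the same libraries on which the calls were made, so this is a description and no separate support. The share over all genes was not counted. Without the WT 4 and TAZG197V 4 libraries, 6 genes of the complex III group were called lower and 3 higher, and 4 genes of the ATP synthase group were called lower and 1 higher. Over all 15232 genes tested in that fit, 2360 were called lower and 2833 higher. The weakest calls, Uqcr10, Uqcrc1, Uqcc2 and Ttc19, were each lost in 5 or more fits. Lyrm7 was lost in 1, with the replicate block and surrogate variables together (log2 fold change 0.23, edgeR adjusted p = 0.0638).

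Genes that work beside these complexes but are not members were listed as well, 15 in all, of which 12 were tested and 2 were called lower and 2 higher. Slc25a4 and Slc25a5 encode ADP/ATP carriers, which exchange ATP for ADP across the inner membrane. Slc25a4, the main form in heart, had 5240 ± 681 CPM in WT against 4079 ± 196 CPM in TAZG197V (SD, n = 4 each), a log2 fold change of -0.37 and an edgeR adjusted p of 0.0148. Slc25a5 had 89.5 ± 14.3 and 192 ± 17.2 CPM (SD, n = 4 each), a log2 fold change of 1.06 and an edgeR adjusted p of 3.56e-05. The phosphate carrier gene Slc25a3 was called lower (log2 fold change -0.22, edgeR adjusted p = 0.0331). Cox7a2l, listed as a partner of complex III, was called higher (0.28, edgeR adjusted p = 0.0111), and contacts between the complexes were not measured.

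Promoters of the members were searched for 5 motifs in RefSeq windows of 250 bases before to 50 bases after the start (GRCm38.p6). The table matched 30 of the 38 members with 34 windows, and held none for Atp5a1, Atp5mpl, the second Atp5o locus, Atp5s, Cyc1, Uqcrb, Uqcrc2 and Uqcrq. The letters GCGCATGC, bound by NRF1, were found on either strand in 7 of the 34 windows (20.6%), beside 2.71% of all 32851 windows. The ETS letters CCGGAAG were in 9 (26.5% beside 8.86%), the ERR letters AAGGTCA in 6 (17.6% beside 4.72%) and the YY1 letters AAGATGGCG in 3 (8.82% beside 1.4%). The C/EBP-ATF letters TGATGCAA were in 0 of the 34 windows, beside 0.895% of all windows. Overlapping matches on both strands were counted as 1 window.

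Motif letters were present in both called and uncalled members, and a difference between these was not tested. NRF1 letters lay in the windows of Cycs, Atp5k, Uqcr11, Uqcrc1 and Ttc19, all called lower, and in those of Atp5g2 and Atp5l, which were not called. ERR letters lay in the windows of Atp5g3 and Atp5k, called lower, of Atpif1, called higher, and of Atp5e, Atp5l and Uqcc3, which were not called. ETS letters lay in those of Atp5j, Atp5k and Uqcr11, called lower, and of Atp5e, Atp5h, Atp5l, Atp5md, Bcs1l and Uqcrh, not called. YY1 letters lay in those of Atp5j, called lower, and of Atp5j2 and Atpaf2, not called. The RefSeq start of Atpif1 lies 1755 bases upstream of the GENCODE gene in which its reads were placed here, so its window is not shown. Parts of 3 windows are shown as examples, all on the minus strand, because these genes hold the NRF1 or ERR letters and were called lower in every alternative fit. Uqcr11 also holds NRF1 letters and was called lower in every alternative fit, but its window is not shown. Capitals mark the motif letters on either strand.
Atp5k, chr5:108434370-108434549: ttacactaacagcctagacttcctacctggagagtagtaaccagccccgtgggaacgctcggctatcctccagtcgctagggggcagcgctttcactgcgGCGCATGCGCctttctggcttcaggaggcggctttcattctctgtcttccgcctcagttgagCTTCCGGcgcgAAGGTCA
Cycs, chr6:50566540-50566719: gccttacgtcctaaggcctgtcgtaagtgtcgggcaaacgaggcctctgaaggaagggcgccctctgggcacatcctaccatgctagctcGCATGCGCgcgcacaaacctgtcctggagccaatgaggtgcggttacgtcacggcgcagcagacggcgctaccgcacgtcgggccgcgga
Atp5g3, chr2:73911297-73911476: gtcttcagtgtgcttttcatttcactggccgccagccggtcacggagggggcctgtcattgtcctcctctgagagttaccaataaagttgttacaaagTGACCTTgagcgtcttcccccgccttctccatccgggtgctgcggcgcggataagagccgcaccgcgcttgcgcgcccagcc

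In Atp5k the NRF1, ETS and ERR letters are all present, the last ending 30 bases after the start. Counted from the RefSeq start, the NRF1 letters begin 60 bases before it in Cycs. In Atp5g3 the ERR letters begin 52 bases before the start. These matches describe the letters only, and binding was not measured.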

How the data were processed

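Total RNA (500 ng per heart piece) was sequenced, per the labels. The authors processed reads with bcl2fastq 2.20.0, FastQC 0.11.9, STAR 2.7.3a on mm10 and featureCounts from Subread 2.0.0. Each deposited file lists raw counts by Ensembl ID. Which annotation release and strand setting the authors used, and how they treated multiply aligned reads, is not given in the sources used here. Symbols, positions and transcripts came from GENCODE M21, and RefSeq symbols added Atp5md.

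Counts were fitted in R 4.3.3 with edgeR 4.0.16 (filterByExpr, TMM, quasi-likelihood F-test, two-sided, Benjamini-Hochberg) with 2 surrogate variables from svaseq (sva 3.50.0, seed 1), and checked on simulated data. Alternatives used DESeq2 1.42.0, other covariates, scalings, filters and library omissions. Windows of 50 bases were matched to annotated transcripts, not to the genome. Every member is named, and per-library values are given for called members and for those a comparison of roles turns on. Members, lists and motifs were chosen with earlier results of these data known. The labels do not name separate litters or batches, so p-values measure the spread between these libraries, and no pair of libraries of 1 genotype was a repeat (chi-square per gene at least 10.2). Called members had 418 to 43344 counts per library, so counting error weighs most on the least counted, such as Cycs and Lyrm7.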

Additional observations from a re-analysis of the deposited data

Results flagged for a closer look

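Each set of 4 libraries was searched for a library far from the others, by the gap to its nearest neighbour over the range of the set. Of 118 sets, 3 exceeded Dixon's critical value at the 95% level, where chance would give 5.9. For Cycs, WT 3 at 25.5 CPM stood apart from the other WT libraries at 20.9 to 21.4 CPM, with a gap of 0.861 of the range; Cycs was called lower without this library as well. For the ratio of Atp5e to Atp5b, TAZG197V 2 at 0.0509 stood above the other TAZG197V libraries at 0.0451 to 0.0459, with a gap of 0.859 of the range. For the share of counts from red cell markers, WT 4 at 5.35% stood apart from the other WT libraries, with a gap of 0.988 of the range.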

How the results depend on the processing

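Over 18 alternative fits the 8 members named as called in all of them kept their direction. The count of complex III genes called higher moved from 3 to 1 without surrogate variables and with lane as covariate, to 0 with the replicate block and surrogate variables together, and ranged from 1 to 2 without 1 library each (1 without WT 2, WT 4 or TAZG197V 2). Over all genes tested, the number called higher moved from 2785 to 2410, 2436 and 2453 in the first 3 of these settings. It ranged from 2125 to 2679 without 1 library each. ATP synthase genes called lower moved from 3 to 6 with the replicate block and surrogate variables and ranged from 3 to 6 without 1 library each (6 without WT 4). Over all genes tested, the number called lower moved from 2275 to 2237 with the replicate block and surrogate variables. It ranged from 1550 to 2145 without 1 library each (2145 without WT 4). With the replicate block and surrogate variables the median of ATP synthase subunits was -0.1553 and that of complex III subunits -0.1752. With the replicate block alone, 5 complex III genes were called lower and 2 higher, and 3 ATP synthase genes lower and 1 higher. Over all 15084 genes tested, that fit called 1834 lower and 2438 higher. Same-number correlations of deviations were 0.277, 0.0436, 0.28 and 0.416, all above 0, but that of number 2 was under 0.1, so the replicate numbers were not taken as pairs; only the number 4 libraries correlated best with their own number. At a fold change of at least 1.5, 1843 genes and 0 members in either direction of either complex were called. By the longest transcript instead of all exon bases, the shift in share of subunit c transcripts was 0.655 percentage points for Atp5g1 and -0.68 for Atp5g3, against 1.50 and -1.53. Uncalled members near 0 changed sign. Atp5d reached 0.02 without surrogate variables, with 1, with lane and with the replicate block (0.0157, 0.019, 0.0152 and 0.0202), 0.0319 without the low-count filter and 0.0369 without both number 4 libraries. Atp5s reached 0.015 and 0.0398 under the last 2 settings. Atp5mpl reached 0.0013 with 1 surrogate variable and 0.0003 with the replicate block. Atp5j2 reached -0.0015 with DESeq2, -0.0029 with DESeq2 size factors and -0.1065 with the replicate block and surrogate variables, where Uqcrq reached -0.0609. Without 1 library each, the range was -0.0545 to 0.0432 for Atp5d, -0.0859 to 0.0478 for Atp5g2, -0.0363 to 0.0578 for Atp5j2, -0.1132 to 0.0275 for Atp5md, -0.0693 to 0.0482 for Atp5mpl, -0.0471 to 0.0214 for Atp5o, -0.0653 to 0.0349 for Atp5s and -0.0683 to 0.1687 for Atpaf1. The cause was not tested.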
